A study of Mus musculus with 12 samples.

Results

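The clustered histone genes of the mouse were taken as every gene symbol that begins with Hist1h, Hist2h, Hist3h or Hist4h and has a single entry in the expression tables, which gave 63 genes of 22293 single-entry symbols. They comprise 6 genes for the linker histone H1, 14 for H2A, 19 for H2B, 12 for H3 and 12 for H4. In mm9 coordinates, 51 lie in the Hist1 cluster on chromosome 13, 8 in the Hist2 cluster on chromosome 3, 3 in the Hist3 cluster on chromosome 11 and 1, Hist4h4, on chromosome 6. Another 5 histone symbols (Hist1h2ao, Hist1h2ap, Hist1h4n, Hist2h2aa1 and Hist2h2aa2) had 10 entries in all, so they were outside the rule, and their levels are given where they bear on a sum.

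The study asked how loss of Zmym3, a zinc finger gene of the X chromosome that is known for a histone demethylase complex, changes male germ cells, and RNA-seq was done on 12 libraries from male CBA/C57 mice. Cultured spermatogonial stem cells (SSC) from wild-type (WT) and Zmym3 knockout (KO) animals labelled as 2 months old gave 2 libraries per genotype, and c-KIT+ cells, which are SSC on laminin dishes treated with 100 nM retinoic acid (RA) for 36 h, gave 2 more per genotype. Spermatocytes (SC) were tetraploid cells of large size sorted from testes of WT and KO mice at 5 and 7 months of age, with 1 library per genotype and age and a stated purity of about 80%. The KO was a Cas9 deletion in the second exon that shifts the reading frame, so that Zmym3 RNA was still present at 9.19 to 11.3 FPKM (fragments scaled to transcript length in kilobases and to the mapped fragments of the library) in the KO cultures, against 37.4 to 40.2 in WT cultures, and was 0.412 and 0.460 in WT and 0.146 and 0.340 in KO spermatocytes. No label says that the 2 libraries of a group came from separate cultures or animals, so p-values measure only the spread between these libraries.

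Most clustered histone genes are switched on as cells enter S phase, when new chromatin needs protein for every nucleosome. Their transcripts lack introns and, in place of a poly(A) tail, end in a short RNA stem-loop that is bound by the protein SLBP. In the testis a few clustered genes serve meiotic cells instead: Hist1h1t encodes the linker histone H1t, and the divergent neighbours Hist1h2ba and Hist1h2aa encode the testis forms of H2B and H2A that enter chromatin before histones are exchanged for protamines.

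The promoters of 4 members on which the results turn are shown, 2 of them testis genes. Windows from 250 bases before to 50 bases after the annotated start came from RefSeq (GRCm38.p6), which had 57 of the 63 members under newer symbols. Capitals mark matches, on either strand, to the CCAAT box (CCAAT), the TATA box (TATAAA) and the octamer (ATTTGCAT), each printed 5′ to 3′ along the gene.
Hist1h2ba, chr13:23934107-23934406, minus strand: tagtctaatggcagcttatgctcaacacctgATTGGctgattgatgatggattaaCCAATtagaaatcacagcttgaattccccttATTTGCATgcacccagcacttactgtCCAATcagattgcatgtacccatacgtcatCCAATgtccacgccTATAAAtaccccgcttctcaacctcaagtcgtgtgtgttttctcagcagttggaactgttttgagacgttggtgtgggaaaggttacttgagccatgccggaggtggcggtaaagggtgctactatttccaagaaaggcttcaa
Hist1h1t, chr13:23695561-23695860, plus strand: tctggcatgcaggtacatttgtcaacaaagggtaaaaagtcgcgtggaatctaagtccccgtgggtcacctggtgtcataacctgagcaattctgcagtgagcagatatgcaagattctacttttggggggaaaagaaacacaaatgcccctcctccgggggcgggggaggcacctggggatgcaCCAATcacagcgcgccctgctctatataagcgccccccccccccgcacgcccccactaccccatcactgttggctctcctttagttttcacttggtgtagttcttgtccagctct
Hist1h2bp, chr13:21787238-21787537, plus strand: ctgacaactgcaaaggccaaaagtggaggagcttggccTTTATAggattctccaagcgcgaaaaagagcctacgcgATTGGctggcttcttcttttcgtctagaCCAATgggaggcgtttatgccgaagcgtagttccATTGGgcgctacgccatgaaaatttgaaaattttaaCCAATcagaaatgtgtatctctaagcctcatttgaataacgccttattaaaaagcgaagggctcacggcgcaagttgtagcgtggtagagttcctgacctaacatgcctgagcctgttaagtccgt
Hist1h4i, chr13:22041313-22041612, minus strand: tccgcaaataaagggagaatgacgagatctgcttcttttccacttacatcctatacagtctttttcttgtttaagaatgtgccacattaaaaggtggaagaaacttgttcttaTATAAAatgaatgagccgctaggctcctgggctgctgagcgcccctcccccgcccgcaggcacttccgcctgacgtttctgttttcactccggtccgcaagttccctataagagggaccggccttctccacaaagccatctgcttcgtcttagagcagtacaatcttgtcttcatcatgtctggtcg
The Hist1h2ba window, with 4 CCAAT boxes, an octamer and a TATA box, shares 220 bases with that of Hist1h2aa, and on mm9 the genes lie 305 bases apart (chr13:24025642-24026025 and chr13:24026331-24026720). The Hist1h1t window (gene at chr13:23787680-23788591 on mm9) held 1 CCAAT box and the Hist1h4i window (gene at chr13:22132685-22133221 on mm9) held 1 TATA box and no CCAAT box. A match describes these letters only and does not show that a factor binds there.

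Over all members with a promoter, CCAAT was present in 49 of 57, against 37.7% of the 27025 RefSeq promoters of 300 bases. It was present in each of the 6 H1, 14 H2A, 16 H2B and 10 H3 promoters and in 3 of 11 H4 promoters. TATAAA was present in 33 of 57 members, against 14.2% of all promoters. The octamer, known as a site of the POU factor OCT1 in H2B genes, was present in 7 of 14 H2A and 7 of 16 H2B promoters and in none of the H1, H3 or H4 promoters, against 1.74% of all promoters. The cyclic AMP response element (CRE), TGACGTCA, was present in 4 of 57, against 1.77%. H2A and H2B genes often share 1 divergent promoter, so their windows are not independent.

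**Figure D1:**
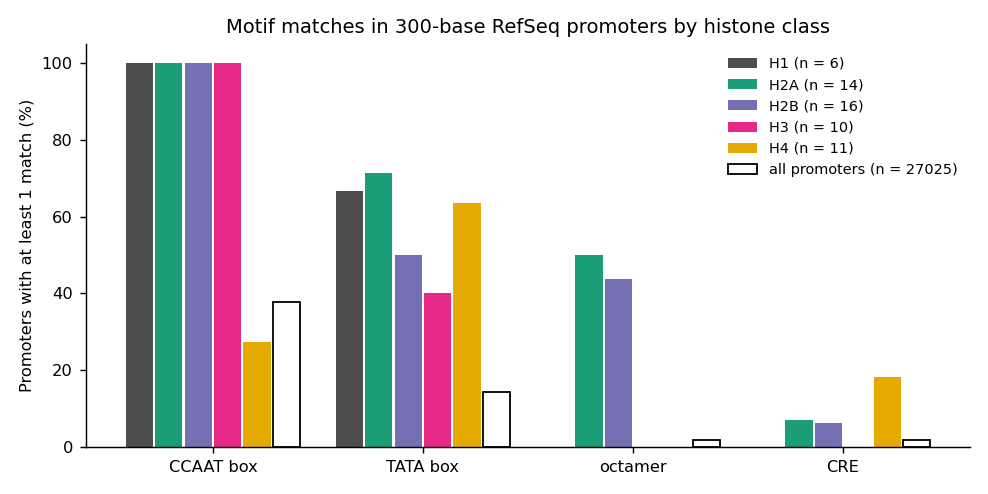
Share (%) of RefSeq promoters with at least 1 match to each motif on either strand, by histone class (coloured bars) and over all 27025 promoters (open bars). CCAAT reached 100% in H1, H2A, H2B and H3 and 27.3% in H4, and the octamer was found in H2A and H2B only.

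The other sequence that the class shares is the stem-loop at the transcript end, which bears on whether a transcript is caught by poly(A) selection. It was searched in GENCODE transcripts (GRCm38, release M21) as 16 bases that begin with GG, with a stem of 6 bases and a loop of 4 that begins with T. It was found in 40 of the 62 members with transcripts, in 8 versions, against 1.25% of all 55341 GENCODE genes, and 21 members carried the same version. Capitals mark the stem-loop in members with different levels.
Hist1h1t: acccaaaGGCTCTTTTAAGAGCCacttaca
Hist1h2bp: acacaaaGGCTCTTTTCAGAGCCacccaca
Hist3h2a: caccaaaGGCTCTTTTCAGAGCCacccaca
Hist1h4i: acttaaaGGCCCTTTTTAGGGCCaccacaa
Hist1h3c: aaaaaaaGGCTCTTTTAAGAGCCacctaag
Hist1h2ag: caacaaaGGCTCTTTTCAGAGCCacctaac
The annotated Hist1h2ag transcript ended 23 bases after the stem-loop and that of Hist1h2bp 38 bases after it, whereas that of Hist3h2a ran 1643 bases on. In all, 18 stem-loop members ended within 100 bases and 9 ran on for over 1000. Of the 22 members without a match, 13 had transcripts of at most 420 bases, Hist1h2ba (384 bases) and Hist1h2aa (390 bases) among them, and Hist2h2be had a transcript of 2620 bases with no match by this rule. Annotated transcripts this short may leave out the end where a stem-loop would lie. A missing match in the 13 thus does not show that the gene lacks a stem-loop.

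Clustered histone RNA was a small part of each library, and its make-up differed between cultures and spermatocytes. The members summed to 152 to 226 FPKM in the 8 culture libraries and to 44.7 (WT) and 34.9 (KO) at 5 months and 99.7 (WT) and 106 (KO) at 7 months in spermatocytes, which is 0.0130% to 0.0823% of the summed FPKM. In the cultures 44 members reached 1 FPKM in at least 1 library and 21 in all 8, and in spermatocytes 18 did so in at least 1 and 6 in all 4. Only Hist2h2be reached 1 FPKM in all 4 spermatocyte libraries and in no culture library. At the other end, 8 members were listed at 0 in all 4 spermatocyte libraries, and 13 reached 1 FPKM in no library.

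The labels name total RNA and Illumina library protocols but no selection step, and clustered histone mRNA is recovered poorly by poly(A) selection. Whether the preparation differed between cultures and spermatocytes was not tested. FPKM holds no counts, and depth was recovered for the members in 1 library alone, WT spermatocytes at 5 months, from the width of the confidence limits in its table. There 1 FPKM stood for 60.5 fragments in Hist2h2be but for about 0.956 in short H4 genes such as Hist1h4a, so low values of short genes rest on few fragments. The first WT SSC library held 26958 FPKM of small RNA genes, 26720 of it Mir3064, and the first KO c-KIT+ library 7182, against 133 to 971 in the others. Fewer members were called for KO, in SSC and in c-KIT+ cells, when any single library compared was left out. This was not particular to the first WT SSC or the first KO c-KIT+ library. Sequence is also shared: over 50% of the 50-base windows of 28 members recur in other genes, and only Hist1h1t, Hist2h2be, Hist1h1a and Hist1h1b had none that do.

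By class, the H3 sum was low in every spermatocyte library, and the H2B sum lay below the culture range at 5 months and above it at 7 months. H3 members summed to 31.6 to 51.3 FPKM in cultures and to 1.52 to 4.72 in spermatocytes, H4 members to 51.5 to 98.4 and 8.97 to 22.0, and H2A members to 27.5 to 40.6 and 5.70 to 16.7. These 3 classes did not overlap between the states among single-entry symbols. With the symbols with several entries added, the H2A sum took the opposite order, at 44.4 to 70.2 in cultures and 180 to 334 in spermatocytes. H2B members summed to 24.4 to 34.5 in cultures, to 23.7 (WT) and 16.9 (KO) in 5-month spermatocytes and to 51.9 (WT) and 53.1 (KO) at 7 months, and made up 15.1% to 18.5% of clustered histone FPKM in cultures against 48.4% to 53.1% in spermatocytes. That share rests on the symbols with several entries being left out. With them the H2B share was 13.0% to 16.0% in cultures and 8.10% to 13.6% in spermatocytes. The high share in spermatocytes was thus lost, and the ranges overlapped. H1 members summed to 7.05 to 10.9 in cultures, to 0.956 (WT) and 1.42 (KO) at 5 months and to 7.08 (WT) and 9.39 (KO) at 7 months.

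**Figure D2:**
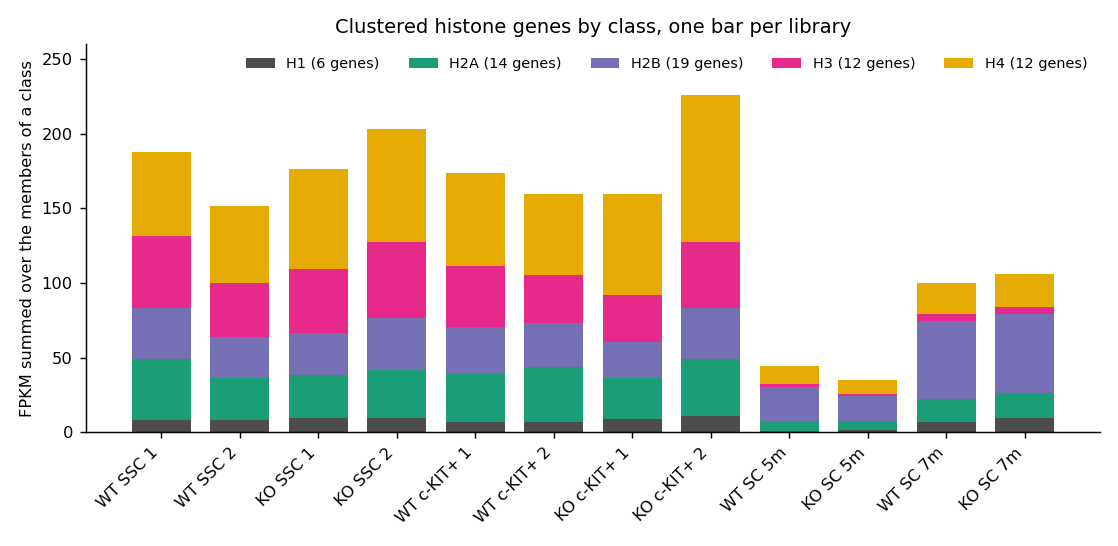
FPKM summed over the members of each histone class, 1 bar per library (SC, spermatocytes; 5m and 7m, months of age). The 8 culture bars reach 152 to 226 FPKM and the 4 spermatocyte bars 34.9 to 106, with H3 at 1.52 to 4.72 FPKM in spermatocytes.

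The clusters differed as well. The Hist1 cluster summed to 146 to 217 FPKM in cultures and 17.6 to 81.8 in spermatocytes, whereas the small Hist2 cluster summed to 2.02 to 3.73 in cultures and 9.93 to 13.9 in spermatocytes, and the Hist3 cluster to 2.80 to 5.47 and 6.08 to 11.2. Without the 3 testis genes, the remaining 60 members summed to 151 to 222 FPKM in cultures and to 37.6 (WT) and 30.9 (KO) at 5 months and 55.8 (WT) and 53.5 (KO) at 7 months in spermatocytes. The sums depend on the symbols that the rule leaves out. Hist2h2aa1 and Hist2h2aa2, a pair of near-identical H2A genes of the Hist2 cluster, summed to 2.47 to 6.58 FPKM in cultures and to 173 to 315 in spermatocytes, over all their entries. With all 5 left-out symbols added, the total was 174 to 262 FPKM in cultures and 209 to 424 in spermatocytes, and the H2A sum was 44.4 to 70.2 and 180 to 334. The order of the states thus turned for the H2A sum without overlap, whereas the totals overlapped, with 228 (WT) and 209 (KO) at 5 months inside the culture range and 381 (WT) and 424 (KO) at 7 months above it.

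Within a class few genes carried the signal, in shares that cover single-entry symbols alone. In SSC, Hist1h4i gave 42.0% of H4 FPKM, Hist1h3c 46.2% of H3 and Hist1h2ag 31.8% of H2A, and in c-KIT+ cells 36.0%, 52.9% and 35.0%. The left-out H2A symbol Hist1h2ao, at 13.9 to 25.2 FPKM in cultures over its entries, was above Hist1h2ag (8.98 to 16.8), which made up 15.9% to 23.9% of H2A once such symbols were added. H2B was shared more evenly, with Hist1h2bc and Hist1h2bk together at 40.8% in SSC and 50.1% in c-KIT+ cells. In spermatocytes the leading genes were others, and in H2B and H4 they differed between the ages. Hist1h1t gave 95.1% of mean H1 FPKM over the 4 libraries. Hist2h2be led H2B at 5 months, with 37.4% in WT and 46.5% in KO, and Hist1h2ba followed Hist1h2bp with 21.6% and 14.2%, whereas at 7 months Hist1h2ba led with 62.7% and 71.7%. Hist3h2a led H2A in all 4 libraries (41.9% to 71.1%), but with the left-out symbols added it made up 1.77% to 2.42%, since Hist2h2aa1 alone was 152 to 184 FPKM. In H4 the leading gene was another in each library: Hist1h4j (4.26 FPKM) in WT and Hist1h4b (3.93) in KO at 5 months, and Hist1h4a (6.49) in WT and Hist1h4c (6.97) in KO at 7 months. In WT at 5 months Hist1h4j rested on about 4.07 fragments, and the longer Hist1h4h, at 2.33 FPKM, on about 11.5. Counting error thus bears on which H4 gene led. Hist2h3c2-ps (35.8%) and Hist2h3c1 (23.5%) had the highest means of the little H3 that remained.

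Hist1h2ba, the testis H2B gene, was at 0 to 1.39 FPKM in cultures and at 2.40 to 38.0 FPKM in spermatocytes. Its level was 0.381 and 0.00540 FPKM in WT SSC, 0.548 and 0 in KO SSC, 0.885 and 1.13 in WT c-KIT+ cells and 0.290 and 1.39 in KO c-KIT+ cells. In spermatocytes it was 5.11 (WT) and 2.40 (KO) at 5 months and 32.6 (WT) and 38.0 (KO) at 7 months. Every spermatocyte library was above every culture library, and the 7-month libraries were far above the 5-month ones. In WT spermatocytes at 5 months the value rested on about 13 fragments, with an exact Poisson 95% interval of 2.73 to 8.77 FPKM that covers counting error only. Fragments are not known for the KO library at 5 months. Whether its 2.40 FPKM differs from the 1.39 FPKM in KO c-KIT+ cells beyond counting error was thus not tested. Of the 50-base windows of Hist1h2ba, 38.2% recur in other H2B genes.

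Hist1h1t, the testis linker histone gene, which shares no window with another gene, was at 0.0545 to 0.291 FPKM in the 8 culture libraries. It was 0.865 (WT) and 1.26 (KO) in 5-month spermatocytes and 6.57 (WT) and 9.23 (KO) at 7 months, so the states did not overlap. The 5-month WT value came from 14 fragments (exact Poisson 95% interval 0.473 to 1.45 FPKM). Hist1h2aa, the testis H2A gene, was 1.28 and 1.05 FPKM in WT SSC, 0.502 and 1.28 in KO SSC, 0.565 and 0.813 in WT c-KIT+ cells and 1.65 and 2.49 in KO c-KIT+ cells. It was 1.12 (WT) and 0.324 (KO) in 5-month spermatocytes, within or below the culture range, and 4.72 (WT) and 5.12 (KO) at 7 months, above it. At 5 months it rested on 3 fragments in WT (0.231 to 3.27 FPKM), so a difference from cultures was not detectable at this depth.

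**Figure D3:**
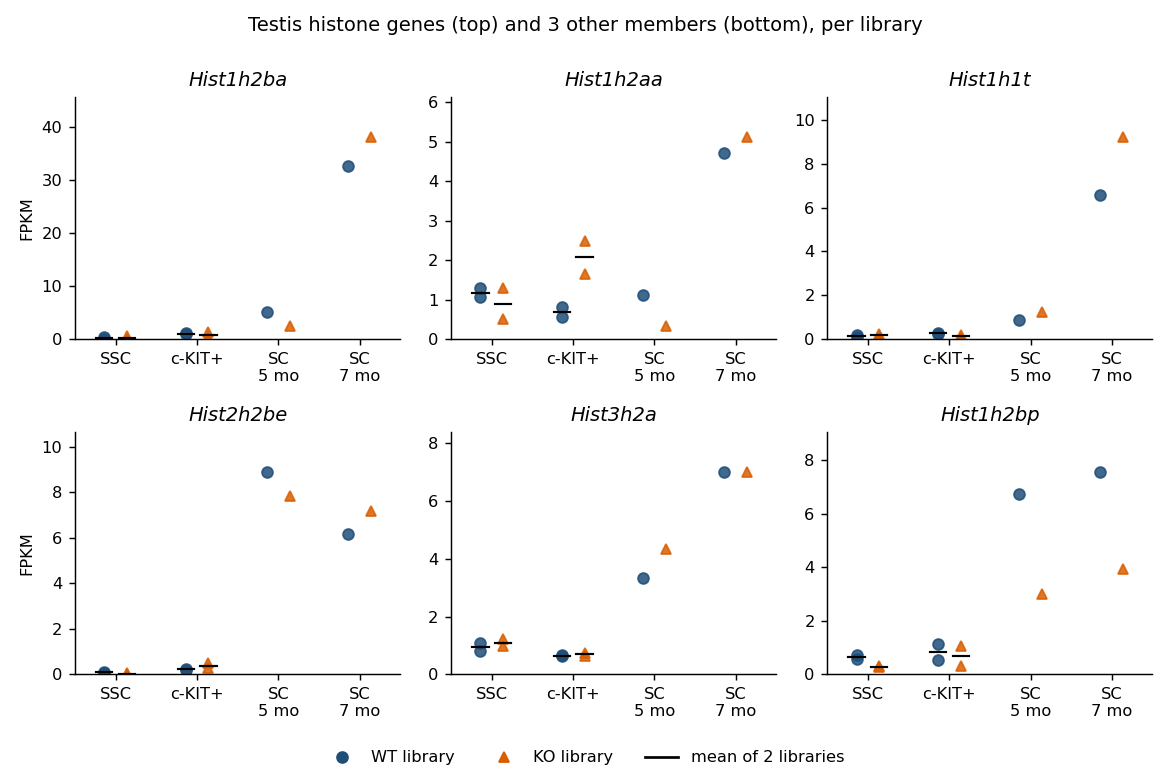
FPKM of the 3 testis genes (top) and of Hist2h2be, Hist3h2a and Hist1h2bp (bottom) in each WT (circle) and KO (triangle) library, with the mean of 2 libraries as a line in cultures. Hist1h2ba and Hist1h1t are highest in the 7-month spermatocyte (SC) libraries, while Hist2h2be lies at 6.18 to 8.88 FPKM at both ages, and each panel has its own scale.

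WT spermatocytes were compared with WT SSC by limma on log2(FPKM + 1), with the c-KIT+ libraries in the fit for the spread and the 2 ages as libraries of 1 state. Of the 63 members 39 passed the filter of 1 FPKM in 2 of 6 libraries, and at adjusted p under 0.01 (Benjamini-Hochberg over 12959 genes) 4 rose and 27 fell. Over all genes 25.7% were called higher and 59.7% lower. The filter bears on both counts: the 4 that rose would not have passed it on the cultures alone, and 29 members, 26 of which fell, would not have passed it on the spermatocytes alone. The median log2 difference of the members tested was -1.65 and that of all genes tested -0.93. Lower calls were found for 2 of 2 H1, 7 of 10 H2A, 6 of 10 H2B, 7 of 8 H3 and 5 of 9 H4 members, and higher calls for 1 H2A and 3 H2B members. Hist1h1t was not tested, since only its 7-month WT library reached 1 FPKM.

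The 4 members that rose were Hist1h2ba (log2 difference 3.60, SE 0.76, adjusted p = 0.00466), Hist2h2be (2.94, SE 0.15, adjusted p = 7.65e-06), Hist1h2bp (2.30, SE 0.17, adjusted p = 3.25e-05) and Hist3h2a (1.61, SE 0.28, adjusted p = 0.00199), while Hist1h2aa did not pass the test (0.69, SE 0.44, adjusted p = 0.187). Hist2h2be, an H2B gene at chr3:96025044-96027661 on mm9, is known from its human counterpart for a polyadenylated transcript outside S phase. Its level was 0.0313 to 0.491 FPKM in the 8 culture libraries and 8.88, 7.85, 6.18 and 7.20 in WT and KO spermatocytes at 5 months and WT and KO at 7 months, with 537 fragments behind the first of these (8.14 to 9.66 FPKM). Hist3h2a, an H2A gene of the Hist3 cluster at chr11:58768187-58770176, was 0.629 to 1.23 FPKM in cultures and 3.35, 4.35, 7.00 and 7.00 in the same spermatocyte libraries. Of its 50-base windows 31.5% recur in other genes, the most in Trim17, and 2.00% in other members. Its values may thus include reads from other genes. Hist1h2bp was 0.280 to 1.15 FPKM in cultures and 2.99 to 7.55 in spermatocytes. In none of these 3 genes did cultures and spermatocytes overlap, but they were picked by their calls on the WT libraries, so this adds no support. In the Hist2 cluster, Hist2h2ac lies 276 bases from Hist2h2be and Hist2h2ab 146 bases from Hist2h2ac, and Hist2h2ab was 0 in all 8 culture libraries and 0.363, 0, 1.16 and 0.939 in spermatocytes.

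The largest falls included those of Hist1h3c and Hist1h4i, which led H3 and H4 in the cultures. Hist1h3c fell from 18.1 and 14.3 FPKM in WT SSC to 0.0121 and 0 in WT spermatocytes (log2 difference -4.09, SE 0.12, adjusted p = 9e-07), and Hist1h4i fell from 19.3 and 21.0 to 0.330 and 0.582 (-3.87, SE 0.12, adjusted p = 9.73e-07). Hist1h2ag, an H2A gene 1124 bases from Hist1h4i, went from 10.3 and 9.07 FPKM to 0.0907 and 0.310 (-3.16, SE 0.12). Hist1h3h (-3.01, SE 0.22) and Hist1h2bk (-2.91, SE 0.20) fell as well. Of the somatic linker histones Hist1h1a fell by 2.29 (SE 0.12) and Hist1h1c by 1.96 (SE 0.10). Hist1h1b, Hist1h1d and Hist1h1e were at most 0.372, 0.0827 and 0.287 FPKM in the cultures and were not tested. RNAs without a poly(A) tail were lower as well: the 6 found of 9 summed to 226 and 137 FPKM in WT SSC and to 13.3 and 113 in WT spermatocytes at 5 and 7 months, 1 of the 3 tested fell, and their median log2 difference was -2.08 against -0.93 over all genes. Their part in the histone differences was not tested.

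**Figure D4:**
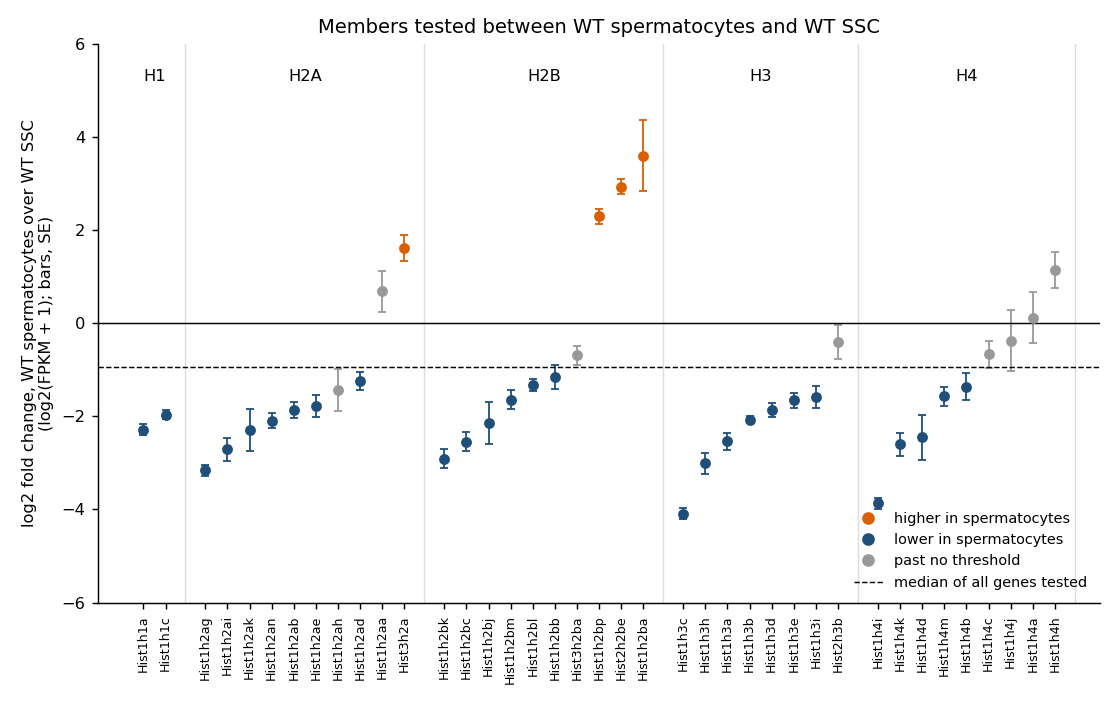
Log2 difference on the log2(FPKM + 1) scale between WT spermatocytes and WT SSC for the 39 members tested, by class, with SE as bars and the median of all genes tested (-0.93) as a dashed line. Called rises are limited to Hist3h2a, Hist1h2bp, Hist2h2be and Hist1h2ba, and the deepest falls are Hist1h3c (-4.09) and Hist1h4i (-3.87).

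The split depended on the scale, since under this one 30.1% of all calls were higher. Quantile normalization moved the median of all genes by 0.71 and median-ratio scaling by 0.92, to -0.23 and -0.01, with 44.4% and 49.3% of calls higher. Of the members 6 then rose and 22 fell, and 7 rose and 24 fell. Relative to the median of all genes, the members' median was -0.72 as deposited, -1.06 after quantile normalization and -1.39 after median-ratio scaling. Leaving out either WT SSC library, or either c-KIT+ library of the shared spread, ended the call of Hist1h2ba (largest adjusted p 0.0360), and leaving out either WT SSC library ended that of Hist3h2a (largest adjusted p 0.0194).

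The cells also differ in origin, culture against testis, and in age, and these cannot be told apart from cell state. The spermatocyte libraries carried the markers of their label: all 10 pachytene markers (among them Sycp3, Piwil1 and Ldhc) were higher in WT spermatocytes. The markers summed to 4122 to 4334 FPKM in the 4 spermatocyte libraries and 116 to 218 in cultures. Of them, Pgk2, Mybl1, Spag6 and Ccna1 were below 1 FPKM in every WT culture library. These passed the filter only through the spermatocytes, so that their direction was fixed by it. In bulk RNA, fewer cells of a type and less RNA per cell cannot be told apart. Spermatid markers were also present in the spermatocyte libraries, with sums of 226 to 552 FPKM against 13.0 to 17.6 in cultures. Prm1 and Prm2 were at 0 or at most 0.107 FPKM in cultures. Tnp1 was 4.69 to 12.3 FPKM there and Spaca1 4.17 to 10.2, and Spaca1 overlapped its levels in spermatocytes. The other spermatid markers were at most 0.439 FPKM in cultures. The part of spermatid markers in the histone levels was not tested.

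Genes that work with the clustered histones were read in the same comparison against the 25.7% of all genes called higher and 59.7% called lower. Of 24 DNA replication genes 21 fell in WT spermatocytes and 3 rose, led by Mcm2 (-6.88, SE 0.10) and Cdt1 (-5.43, SE 0.09), which load the replicative helicase, and Fen1 (-5.32, SE 0.07), a flap endonuclease. Their sum was 1245 to 1415 FPKM in cultures and 265 to 281 in spermatocytes. Of 15 genes of histone transcription and 3′ end processing 11 fell and 1 rose. Those that fell include E2f1, an S-phase transcription factor (-5.54, SE 0.08), Cstf2, a cleavage factor (-4.09, SE 0.12), Hinfp, which binds H4 promoters (-2.98, SE 0.09), and Casp8ap2, a protein of the histone locus body (-2.87, SE 0.12). Of 17 histone chaperones 10 fell, such as Rbbp7 (-5.75, SE 0.09) and Hat1 (-3.45, SE 0.08), and 2 rose, a share of falls close to that of all genes. The filter bears on these lists too. Mcm2, Cdt1, Fen1, E2f1, Cstf2 and Rbbp7 were below 1 FPKM in both WT spermatocyte libraries. They passed it only through the cultures, so that their direction was fixed by it. In the fit of the 4 spermatocyte libraries 16 of the 24 replication genes and 12 of the 15 processing genes passed the filter.

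More members were called between the ages of the spermatocytes than between the genotypes, in a comparison chosen after the values were seen. The same held for all genes, of which 0.332% were called higher and 1.34% lower in KO spermatocytes. In the fit of 4 spermatocyte libraries, 15 members passed the filter, and 9 were higher at 7 months and 0 lower at adjusted p under 0.05, against 23.6% and 21% of the 9350 genes tested; 10 of the 15 had an unadjusted p under 0.05. Of the 15, 8 would not have passed the filter on the 5-month libraries alone, 5 of the 9 among them (Hist1h1t, Hist1h2aa, Hist1h4c, Hist2h2ac and Hist2h3c2-ps), and 3, none of them called, would not have passed on the 7-month libraries alone. The median log2 difference of the members tested was 0.74 and that of all genes 0.01. Hist1h2ba rose by 2.99 (SE 0.24, adjusted p = 0.00158), Hist1h1t by 2.10 (SE 0.11, adjusted p = 0.000755) and Hist1h2aa by 1.82 (SE 0.20, adjusted p = 0.00285). Hist1h4a, an H4 gene at 1.27 (WT) and 1.97 (KO) FPKM at 5 months and 6.49 (WT) and 6.11 (KO) at 7 months, rose by 1.49 (SE 0.14, adjusted p = 0.00223). Hist1h4c, which lies 1415 bases from Hist1h1t, was 2.48 (WT) and 0.992 (KO) at 5 months and 4.29 (WT) and 6.97 (KO) at 7 months, and rose by 1.30 (SE 0.32, adjusted p = 0.0255). In WT at 5 months the Hist1h4a value rested on about 1.22 fragments and that of Hist1h4c on about 2.37. Counting error thus bears on both rises.

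The other 4 that rose with age were Hist2h2ac (0.87), Hist1h4h (0.80), Hist2h3c2-ps (0.74) and Hist3h2a (0.73). Hist2h2be (-0.28, SE 0.11, adjusted p = 0.092) and Hist1h2bp (0.22, SE 0.10, adjusted p = 0.123) did not pass the test. With 1 library per genotype and age, an animal's age cannot be told apart from its preparation. The RNAs without a poly(A) tail moved with age too: the 6 found of 9 summed to 13.3 (WT) and 2.71 (KO) FPKM at 5 months and 113 (WT) and 218 (KO) at 7 months, with 3 of them at 0 in every spermatocyte library. Rmrp, the RNA of RNase MRP, was 9.62 (WT) and 2.00 (KO) at 5 months and 109 (WT) and 176 (KO) at 7 months (log2 difference 4.63), and the part of such recovery in the histone levels was not tested.

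Among the spermatocytes, loss of Zmym3 was tested with age as a block. Of the 15 members tested 0 were higher and 1 was lower in KO at adjusted p under 0.05, against 0.332% and 1.34% of all genes, and 4 had an unadjusted p under 0.05. The member that fell was Hist1h2bp, an H2B gene at chr13:21879357-21881082 on mm9, with 6.76 (WT) and 2.99 (KO) FPKM at 5 months and 7.55 (WT) and 3.93 (KO) at 7 months. Both WT libraries were above both KO libraries (log2 difference -0.88, SE 0.10, adjusted p = 0.0382). The gene was picked by this call, so the lack of overlap adds no support. The call was lost under 6 of the 10 alternatives run, such as a pseudocount of 0.1 (adjusted p = 0.0565), and leaving out a library leaves no residual degrees of freedom. Of its 50-base windows 44.1% recur in other H2B genes.

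The testis genes did not pass this test: Hist1h1t had a log2 difference of 0.35 (SE 0.11, adjusted p = 0.264), Hist1h2ba of -0.31 (SE 0.24, adjusted p = 0.727) and Hist1h2aa of -0.29 (SE 0.20, adjusted p = 0.695). Hist1h1t was higher in KO at both ages, whereas Hist1h2ba and Hist1h2aa were lower in KO at 5 months and higher at 7 months. Spermatid markers were lower in KO (8 of 10, such as Prm2 by 1.39 and Gapdhs by 1.16, with sums of 552 in WT and 226 in KO at 5 months and 508 in WT and 265 in KO at 7 months, and none at 0 in all 4). Sertoli markers, 7 found of 8, summed to 4.41 (WT) and 10.0 (KO) at 5 months and 5.84 (WT) and 27.0 (KO) at 7 months, but only 2 were tested and 0 were called. The part of either in the level of Hist1h2bp was not tested.

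In the cultures few members were called between the genotypes, and so were few of all genes. At adjusted p under 0.01, of 41 members tested 1 was higher and 2 were lower in KO SSC, against 2.11% and 2.79% of 11981 genes, and 1 was higher and 3 were lower in KO c-KIT+ cells, against 1.11% and 1.59%. The 2 comparisons use different libraries in 1 fit, and share its spread. Hist1h4i, the leading H4 gene, was 19.3 and 21.0 FPKM in WT SSC and 33.9 and 30.4 in KO SSC, and 16.7 and 19.2 in WT and 30.2 and 35.8 in KO c-KIT+ cells. Every KO library was above every WT library, by 1.60-fold in SSC and 1.84-fold in c-KIT+ cells (log2 difference 0.65, SE 0.10, adjusted p = 0.00413, and 0.84, SE 0.10, adjusted p = 0.00168).

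Hist1h2an, an H2A gene 269 bases from Hist1h2bp, went the other way, with 4.41 and 3.57 FPKM in WT SSC and 1.22 and 0.522 in KO SSC, and 2.99 and 3.07 in WT and 0.589 and 0.873 in KO c-KIT+ cells. The KO mean was 0.218 of the WT mean in SSC and 0.241 in c-KIT+ cells (log2 difference -1.44, SE 0.17, adjusted p = 0.00148, and -1.22, SE 0.17, adjusted p = 0.00436), with no overlap in either state. Its windows are 85.8% shared with other genes, so this value may include reads from other H2A genes. Hist1h3b, an H3 gene with 60.4% of windows shared, was 3.29 and 3.19 FPKM in WT SSC and 1.72 and 1.90 in KO SSC, and 2.72 and 2.86 in WT and 0.732 and 0.628 in KO c-KIT+ cells. It fell by 0.59 (SE 0.08, adjusted p = 0.00219) in SSC and by 1.18 (SE 0.08, adjusted p = 0.00012) after RA, and WT and KO did not overlap.

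Hist1h3d, another H3 gene, was 3.30 and 2.15 FPKM in WT SSC and 0.890 and 1.29 in KO SSC, and 1.94 and 1.67 in WT and 0.449 and 0.203 in KO c-KIT+ cells. It was called in c-KIT+ cells (-1.09, SE 0.16, adjusted p = 0.00627), and its difference in SSC was -0.82 (SE 0.16, adjusted p = 0.0147). Hist1h3c, the leading H3 gene, had the opposite sign with no call (0.60 with SE 0.15 and adjusted p = 0.0358 in SSC, 0.49 with SE 0.15 and adjusted p = 0.0968 after RA). The H3 sums overlapped, at 42.2 ± 7.78 (SD, n = 2) FPKM in WT and 47.4 ± 5.55 in KO SSC and 36.5 ± 6.10 and 37.9 ± 8.93 in c-KIT+ cells. The H4 sum was 53.9 ± 3.37 in WT and 70.8 ± 6.31 in KO SSC, with no overlap, and 58.4 ± 5.48 and 83.0 ± 21.8 in c-KIT+ cells. With 2 libraries against 2 no exact test of a sum can reach p under 0.05, and none was run.

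**Figure D5:**
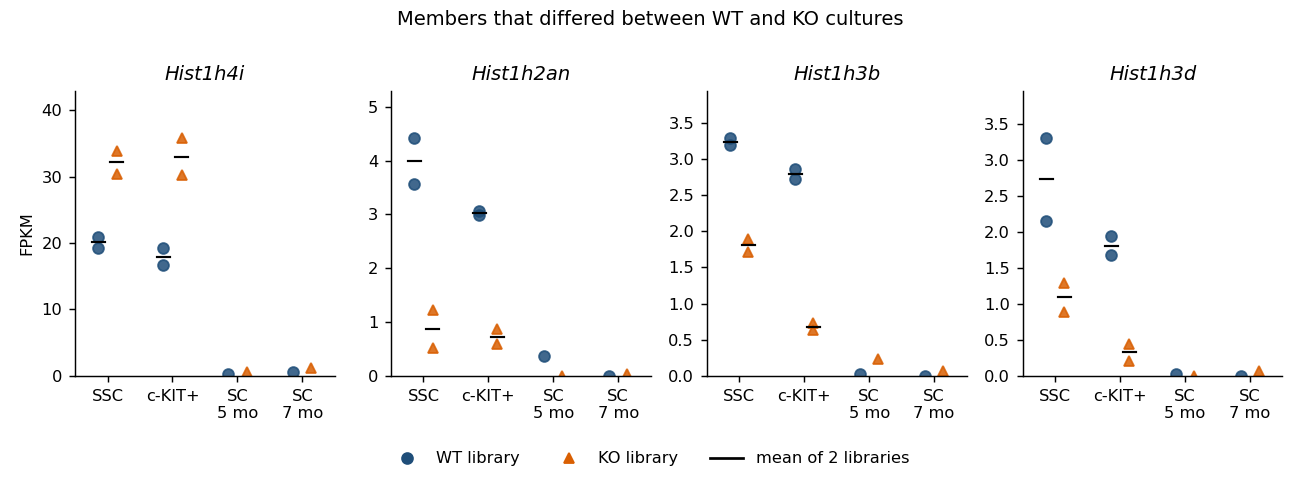
FPKM of Hist1h4i, Hist1h2an, Hist1h3b and Hist1h3d in each WT (circle) and KO (triangle) library, with the mean of 2 libraries as a line in cultures. WT and KO do not overlap in SSC or in c-KIT+ cells for any of the 4 genes, and in the spermatocyte (SC) libraries all are below 1.3 FPKM. The genes were picked by their calls on these culture libraries, so the lack of overlap adds no support.

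These calls were close to the threshold. The genes were picked by their calls on these libraries, so the lack of overlap between WT and KO adds no support. Leaving out any 1 of the 4 libraries compared ended the call of Hist1h4i in SSC (largest adjusted p 0.0368), of Hist1h3b in SSC (0.0229), of Hist1h2an in c-KIT+ cells (0.0377) and of Hist1h3d in c-KIT+ cells (0.0557). Without the first WT SSC library Hist1h2an in SSC had an adjusted p of 0.0149, and Hist1h4i in c-KIT+ cells had 0.0177 without the first WT c-KIT+ library and 0.0101 without the second KO one, while Hist1h3b in c-KIT+ cells passed under every alternative (largest adjusted p 0.00291). No sign turned. Fibroblast markers, which mark feeder or other somatic cells, differed with genotype as well: 5 of the 8 tested were lower in KO SSC and 4 of 8 in KO c-KIT+ cells, their 9 genes summed to 80.9 to 82.9 FPKM in WT and 54.6 to 57.1 in KO libraries, none was at 0 in all cultures, and their part in these differences was not tested.

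Few members were called after retinoic acid. In WT, of the 41 members tested 0 rose and 1 fell, against 24.9% and 15.9% of all genes, with 3 members at an unadjusted p under 0.05. In KO 1 rose and 2 fell, against 24.6% and 16%. The member that fell in WT was Hist1h2bl, an H2B gene with 1.60 and 1.40 FPKM in WT SSC and 0.170 and 0.489 in WT c-KIT+ cells (-0.92, SE 0.23, adjusted p = 0.00975). The groups did not overlap, but the gene was picked by its call on these libraries, so this adds no support. Leaving out any 1 of these 4 libraries ended the call (log2 difference -1.09 to -0.75). In KO its difference was -0.35 (SE 0.23, adjusted p = 0.228), from 1.55 and 1.99 FPKM to 1.86 and 0.634.

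In KO cells Hist1h4a rose from 1.24 and 1.40 FPKM in SSC to 2.93 and 3.15 after RA (0.80, SE 0.14, adjusted p = 0.0016), against 0.20 (SE 0.14, adjusted p = 0.262) in WT. Hist1h3b fell by 0.74 (SE 0.08, adjusted p = 8.94e-05), against -0.16 (SE 0.08, adjusted p = 0.11) in WT, and Hist1h3d fell by 0.66 (SE 0.16, adjusted p = 0.00909), against -0.39 (SE 0.16, adjusted p = 0.0708) in WT. The call of Hist1h3d was lost without any 1 of the 4 KO libraries (largest adjusted p 0.0656), and that of Hist1h4a without the first KO SSC library (adjusted p = 0.0132) or the second KO c-KIT+ library (adjusted p = 0.0113). The difference between genotypes was itself tested as an interaction, which called 0% of the 11981 genes higher and 0% lower and none of the 41 members. At an unadjusted p under 0.05 there were 865 genes and 4 members, and the smallest adjusted p among members was 0.249, for Hist1h3b.

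Over the same RA step, 9 of the 24 DNA replication genes rose in WT and 0 fell, against 24.9% and 15.9% of all genes, such as Pola1 (0.80, SE 0.08), a polymerase subunit, and Prim1 (0.72, SE 0.05), a primase subunit, and 6 rose and 2 fell in KO, against 24.6% and 16%. Of the 15 genes of histone transcription and processing 3 rose and 1 fell in WT, neither above the share of all genes, among them Slbp, the stem-loop binding protein, by 0.18 (SE 0.04) at 113 and 117 FPKM in WT SSC and 129 and 132 in WT c-KIT+ cells. The state of the cultures is seen in their markers: the 9 markers of undifferentiated spermatogonia summed to 408 to 465 FPKM in SSC and 196 to 229.5 in c-KIT+ cells, and the 5 of differentiating spermatogonia to 144 to 157 and 757 to 833. Stra8 alone, an RA-induced gene, went from 1.44 to 2.10 FPKM in SSC to 556 to 627 in c-KIT+ cells, and 4 of the 5 rose in each genotype while Dmrtb1 fell, from 12.9 and 10.4 to 6.54 and 6.25 in WT.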

How the data were processed

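FPKM per gene was deposited by the authors, 1 table per library, made with TopHat2 2.0.6 and Cufflinks 2.0.2 on mm9 per the labels, which also name Cuffdiff; the annotation and any poly(A) selection are not given in the sources used here. The FPKM confidence limits deposited for 1 library gave fragments as the square of 2 times the FPKM over the half-width; 14 of 25 members with at least 0.5 fragment were within 0.05 of a whole number. Of 23021 entries, 728 belong to repeated symbols and were left out.

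Tests used limma 3.58.1 (R 4.3.3) with a variance trend on log2(FPKM + 1), keeping genes that reached 1 FPKM in 2 or more libraries of a fit: 8 culture libraries, 4 spermatocyte libraries with age as a block, or 6 WT libraries. A log2 difference on this scale understates the change of low genes. Benjamini-Hochberg adjustment covered all genes tested. Calls needed adjusted p under 0.01, or 0.05 in spermatocytes. The fits were also run on simulated data with known changes, and the outcome is not given here. Alternatives changed the pseudocount, filter, scaling, variance trend, threshold, block, libraries in the fit, and left out each library.

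The members and gene lists were chosen with earlier results of these data known. Named genes were the testis and linker histones, the 2 most abundant members per class and state, up to 5 called members in each direction, and up to 4 of each other list. Hist1h3c in the genotype comparison, Hist1h2aa, Hist2h2ac, Hist2h2ab, Slbp, Rmrp and the left-out symbols were singled out after their values were seen. No pair of libraries shared more than 2 equal values above 0.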

Additional observations from a re-analysis of the deposited data

Results flagged for a closer look

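The sign of the log2 ratio of KO to WT spermatocytes differed between 5 and 7 months in several sums and members. There was 1 library per genotype and age, and the difference between the ages was not tested. The log2 ratio of KO to WT for the sum of all members was -0.35 at 5 months and 0.087 at 7 months. It was -0.49 and 0.031 for the H2B sum, -0.57 and 0.018 for the H3 sum and -0.43 and 0.087 for the H4 sum. For the testis genes it was -1.09 and 0.22 for Hist1h2ba and -1.79 and 0.12 for Hist1h2aa, and for Hist2h2be it was -0.18 and 0.22. In contrast, Hist1h1t was higher in KO at both ages (0.54 and 0.49) and Hist1h2bp lower at both (-1.18 and -0.94). RNAs without a poly(A) tail were likewise lower in KO at 5 months and higher in KO at 7 months. Their sums were 13.3 (WT) and 2.71 (KO) FPKM at 5 months and 113 (WT) and 218 (KO) at 7 months. The part of these RNAs in the ratios was not tested. The 5-month Hist1h2aa value of WT rests on 3 fragments.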

How the results depend on the processing

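Of the 28 gene differences past a threshold, 15 stayed past it under every alternative run for them; over 408 alternatives of 31 named differences, 61 no longer passed the threshold and none turned. The only alternative run for the class sums was totals taken without histone and small RNA genes. The mean of each sum over the culture or spermatocyte libraries then moved by less than 1 SD over those libraries. That SD spans both genotypes and, in spermatocytes, both ages. Scaling to the mean total changes such a mean little by its construction, so this does not test the sums of single libraries. Called members (higher or lower) numbered, without a filter on low values, 0 for RA in WT, 1 each for KO in SSC and in c-KIT+ cells and 0 for KO in spermatocytes; with a filter of 5 FPKM, 0 for RA in WT and in KO, 1 each for KO in SSC and in c-KIT+ cells, 4 for age and 14 for spermatocytes against SSC. With equal totals they numbered 6 for RA in KO, 6 for KO in SSC, 7 for KO in c-KIT+ cells and 0 for KO in spermatocytes, and with totals taken without histone and small RNA genes 5 for KO in SSC. At adjusted p under 0.05 they numbered 6, 6 and 7 for RA in KO and for KO in SSC and in c-KIT+ cells. KO in spermatocytes gave 0 with a pseudocount of 0.1, without the variance trend, at adjusted p under 0.01 or with no block for age. RA in WT gave 0 without the variance trend. The causes were not tested, except that a higher filter tests fewer members.

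Same-numbered libraries correlated in their deviations at 0.283 between KO SSC and KO c-KIT+ cells and 0.169 between WT SSC and WT c-KIT+ cells, and at -0.072 to 0.0934 in the other 4 pairs of groups. With 2 numbers per pair and no label that ties them, the numbers were not taken to pair the libraries. With the number as a replicate block RA in WT gave 0 called members, RA in KO 3, KO in SSC 3, KO in c-KIT+ cells 3 and the interaction 0. Of the calls without the block, 2 of 3 for RA in KO, 3 of 3 for KO in SSC and 2 of 4 for KO in c-KIT+ cells were kept; those lost were Hist1h2bl with RA in WT (adjusted p = 0.0183 with limma), Hist1h3d with RA in KO (0.0119), and Hist1h2an (0.0104) and Hist1h3d (0.0124) for KO in c-KIT+ cells. Leaving out 1 library gave 0 to 2 for RA in WT, 1 to 4 for RA in KO, 0 to 1 for KO in SSC, 1 to 3 for KO in c-KIT+ cells, 0 for the interaction and 23 to 33 for spermatocytes against SSC; a group left with 1 library is assumed to vary like the others. For the 4 spermatocyte libraries no such fit has residual degrees of freedom. Between WT spermatocytes and WT SSC, all genes split into 3332 higher and 7732 lower, 4621 and 5784 after quantile normalization and 5245 and 5390 after median-ratio scaling. Fragments are known for 1 library only, and short genes with few fragments limit what can be seen in spermatocytes.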

Other observations

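Histone genes outside the clusters were measured in the same libraries. Of the 8 germ-cell histones 6 were found and 4 were tested between WT SSC and WT spermatocytes. These 4 passed the filter only through the spermatocyte libraries, so that their direction was fixed by it, and they rose: Hils1 by 3.46 (SE 0.13) and H1fnt by 3.03 (SE 0.19), linker-like histones of spermatids, and H2afb1 by 2.41 (SE 0.11) and 1700024P04Rik by 2.02 (SE 0.21), on the log2(FPKM + 1) scale in limma. H1fnt was 0 in all 8 culture libraries and 5.68 (WT) and 1.61 (KO) FPKM at 5 months and 8.98 (WT) and 5.61 (KO) at 7 months, and Hils1 was 9.41, 3.62, 11.3 and 6.92 in the same order. Both were lower in KO at both ages, without a call, while the spermatid markers were called lower in 8 of 10.

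Of the 11 replacement and variant histones 1 rose and 5 fell in WT spermatocytes, below the 25.7% and 59.7% of all genes. H3f3b, an H3.3 gene, rose by 0.91 (SE 0.09), and those that fell include Cenpa, the centromeric H3 (-5.29, SE 0.09), H2afy2, a macroH2A (-5.12, SE 0.08), H1f0, the linker histone of resting cells (-3.67, SE 0.16), and H2afv (-2.03, SE 0.13). Cenpa and H2afy2 were below 1 FPKM in both WT spermatocyte libraries. They passed the filter only through the cultures, so that their direction was fixed by it. With RA, H2afy2 fell by 1.28 (SE 0.07) in WT and 1.10 (SE 0.07) in KO, and H3f3b rose by 0.45 (SE 0.05) and 0.46 (SE 0.05). H1f0 was higher in KO SSC by 0.37 (SE 0.07, adjusted p = 0.00993) and in KO c-KIT+ cells by 0.44 (SE 0.07, adjusted p = 0.00607).

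With age, some variants moved against the clustered members. H2afz was 107 FPKM in both genotypes at 5 months and 34.6 (WT) and 35.3 (KO) at 7 months (-1.59, SE 0.05, adjusted p = 0.000225), and H3f3a went from 131 (WT) and 130.1 (KO) to 57.5 and 56.2 (-1.18, SE 0.04, adjusted p = 0.000313), whereas H1fx (0.62, SE 0.05) and H2afx (0.56, SE 0.05) rose. These values are given without an explanation.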
